A study of Mus musculus with 371 samples.

Results

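Prdm1, Maf, Il10, Ahr, Nfil3 and Batf are the genes of the Blimp-1, c-Maf and IL-10 axis, 6 of the 23362 genes measured, and they were taken by name, by a choice made with earlier results of these data known. They were described in single T cells sorted from B16F10 tumours, a transplanted mouse melanoma, in C57BL/6 mice. The 4 groups were CD8 cells labelled KO for Il27ra, CD8 cells labelled WT, CD4 cells labelled KO and CD4 cells labelled WT, and no further allele, agent, age or sex is named. Each cell was read by Smart-seq2, which copies full-length mRNA into cDNA, here with 21 amplification cycles. Each group was treated as 1 sorted pool, since its cells share an animal word and a suffix in their titles that nothing explains. Cells of a pool are not replicates, and no test was made between groups, whose genotype and pool cannot be told apart. The suffix differs between the CD8 and the CD4 cells, and its part in any difference between the sorts cannot be told apart from the sort.

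IL-27 is a cytokine that signals through Il27ra and the shared chain gp130 to transcription factors of the STAT family, STAT3 among them. In CD4 T cells it is known as an inducer of IL-10, a cytokine that restrains immune responses, and c-Maf and the aryl hydrocarbon receptor (AhR) are known to act together on the Il10 gene in this setting. Blimp-1, encoded by Prdm1, is a repressor of terminally differentiating lymphocytes that, together with c-Maf, has been linked to co-inhibitory receptors on tumour T cells, while Nfil3 and Batf are basic leucine zipper factors, Nfil3 linked to IL-10 and Tim-3 and Batf a partner of Jun and IRF4 proteins.

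The promoters of Prdm1 and Batf are shown because they hold binding letters of other members' factor families. The sequences are the 250 bases before the RefSeq transcript start (GRCm38.p6, 5′ to 3′ on the strand of the gene). Prdm1 is at chr10:44458749-44458998 on the minus strand, and Batf at chr12:85686470-85686719 on the plus strand. The Prdm1 window lies inside the span of the gene given below, which reaches upstream to 44528501. Only this start of Prdm1 was searched.
Prdm1: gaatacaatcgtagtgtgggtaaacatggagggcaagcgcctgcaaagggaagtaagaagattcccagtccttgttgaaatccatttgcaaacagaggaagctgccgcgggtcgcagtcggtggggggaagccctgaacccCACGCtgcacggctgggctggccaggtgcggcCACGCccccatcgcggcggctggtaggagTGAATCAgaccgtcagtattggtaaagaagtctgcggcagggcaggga
Batf: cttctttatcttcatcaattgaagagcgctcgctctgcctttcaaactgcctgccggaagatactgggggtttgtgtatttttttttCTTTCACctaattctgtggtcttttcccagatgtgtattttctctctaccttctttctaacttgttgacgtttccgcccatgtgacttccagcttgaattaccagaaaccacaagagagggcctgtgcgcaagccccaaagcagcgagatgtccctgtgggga
In Prdm1, capitals mark 1 match to the AP-1 letters TGANTCA, 48 bases before the start, and 2 matches to the AhR core GCGTG, read on the other strand, the nearer one 77 bases before it. In Batf, capitals mark 1 match to the Blimp-1 letters GNGAAAG on the other strand. Both strands were searched, and no matches overlapped. Of 32851 promoter windows of this length, 6.75% held TGANTCA, 28.2% held GCGTG and 19.4% held GNGAAAG. The Maf recognition letters TGCTGAC (3.81% of windows), the Nfil3 letters TTANNTAA (5.43%) and the STAT letters TTCNNNGAA (7.02%) matched neither gene, and no motif searched matched the Nfil3 promoter. A match describes letters only, and AP-1 letters of this kind are common to Batf, Jun and Fos proteins.

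After a filter for at least 1000 genes at 1 FPKM (fragments scaled to transcript length and library size) or more, which removed 21 cells, 350 cells remained, 86 labelled KO and 90 WT in the CD8 sort and 89 labelled KO and 85 WT in the CD4 sort. A median of 1955 genes was found in KO-labelled CD8 cells and 2148 in WT CD8 cells, against 1868 in KO-labelled CD4 cells and 1661 in WT CD4 cells. Il27ra itself was found in 53.5% of KO-labelled CD8 and 51.1% of WT CD8 cells, and in 50.6% of KO-labelled CD4 and 50.6% of WT CD4 cells. Its mean log2(FPKM + 1) was 3.24 in KO-labelled and 2.99 in WT CD8 cells, and 2.99 in KO-labelled and 3.34 in WT CD4 cells. 1 value per gene over all exons does not check a deletion, and the cells are named as labelled. Cd4 was found in 0 cells of the CD8 sort, which by a limit of 3 cells allows up to 3.49% in KO-labelled and 3.33% in WT cells, and in 87.6% of KO-labelled and 87.1% of WT cells of the CD4 sort. In the CD4 sort, Cd8a was found in 1.12% of KO-labelled and 2.35% of WT cells, and Cd8b1 in 21.3% of KO-labelled and 24.7% of WT cells. At 10 FPKM or more, 69 of 89 KO-labelled and 66 of 85 WT CD4 cells had Cd4 and neither Cd8a nor Cd8b1. At that level, 82 of 86 KO-labelled and 83 of 90 WT CD8 cells had Cd8a or Cd8b1 and no Cd4. At least 2 markers of a single other cell type at 10 FPKM or more were found in 5 KO-labelled CD8, 10 WT CD8, 9 KO-labelled CD4 and 7 WT CD4 cells.

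Detection was partial even for genes that T cells share, with Cd3e found in 86% to 93.3% of cells by group. By the spacing of low values, the median cell held about 472515 fragments. For the longest transcript of each gene, 1 fragment was then worth about 0.40 FPKM for Prdm1, 0.33 for Maf, 0.38 for Ahr, 1.04 for Nfil3, 1.62 for Il10 and 2.22 for Batf. It is worth more for shorter transcripts, which reach down to 830 bases for Prdm1 (longest 5281) and 818 for Ahr (longest 5548). A cell counts as having a gene at 1 FPKM or more, which at the longest transcripts 1 fragment meets for Nfil3, Il10 and Batf. Intervals of shares are exact Clopper-Pearson 95% intervals, the upper limit printed beside a count of 0 is 3 cells of the total, and both cover counting error only.

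Maf, Prdm1 and Il10 were found mostly in CD4 cells, Batf and Nfil3 in both sorts, and Ahr in few cells of any group. Il10 was found in 11 cells of each CD4 pool and in 1 cell of each CD8 pool, there at the level of about 1 fragment. Between KO-labelled and WT cells of the same sort, every member's shares had overlapping intervals. Over all measured genes, intervals were apart for a higher share in KO-labelled cells in 0.107% of genes in CD8 and 0.991% in CD4 cells, and for a lower share in 3.02% in CD8 and 0.239% in CD4 cells.

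**Figure D1:**
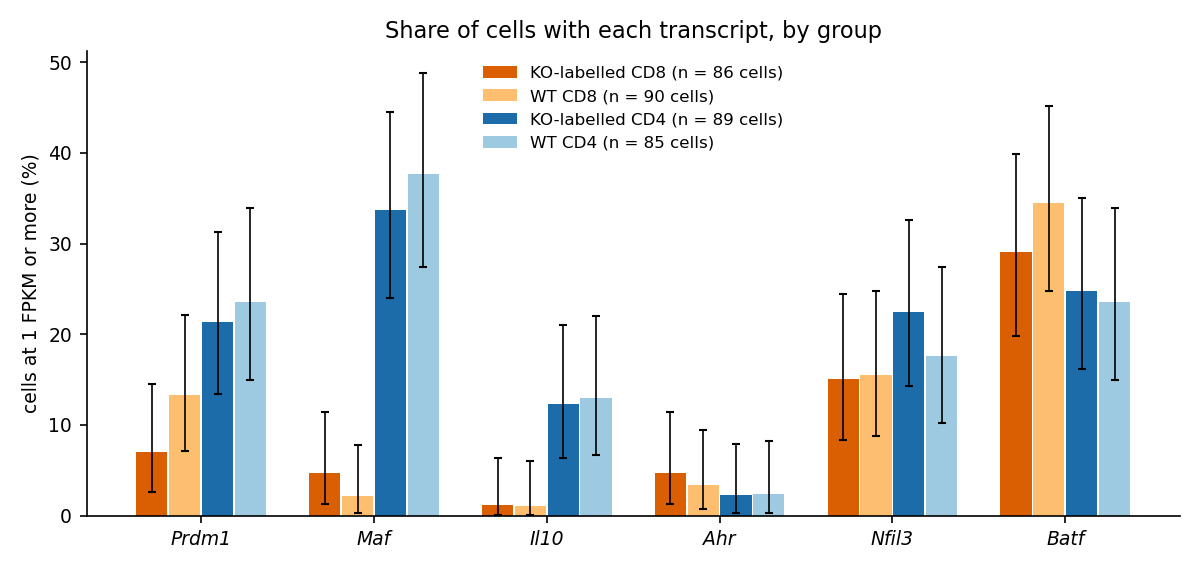
Share of cells (vertical axis, percent) with each transcript at 1 FPKM or more, in KO-labelled and WT CD8 cells and KO-labelled and WT CD4 cells. Error bars are exact 95% intervals over cells of 1 pool, and Maf reaches 33.7% and 37.6% in KO-labelled and WT CD4 cells but 4.65% and 2.22% in KO-labelled and WT CD8 cells.

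Prdm1 (mm10, chromosome 10, 44437177 to 44528501, minus strand) was found in 6 of 86 KO-labelled CD8 cells, 6.98% with an interval of 2.60% to 14.6%, and in 12 of 90 WT CD8 cells, 13.3% with 7.08% to 22.1%. Of the CD4 cells, it was found in 19 of 89 labelled KO, 21.3% with 13.4% to 31.3%, and in 20 of 85 WT, 23.5% with 15% to 34%. From the highest share to the lowest, the order was WT CD4, KO-labelled CD4, WT CD8 and KO-labelled CD8, and neighbours in that order had overlapping intervals. Where found, Prdm1 had a median of 56.8 FPKM in KO-labelled and 16 FPKM in WT CD8 cells, and of 51.1 FPKM in KO-labelled and 67.8 FPKM in WT CD4 cells.

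Maf, the gene of c-Maf (chromosome 8, 115682942 to 115707794, minus strand), was found in 30 KO-labelled CD4 cells (33.7%, 24% to 44.5%) and 32 WT CD4 cells (37.6%, 27.4% to 48.8%). In CD8 cells it was found in 4 labelled KO (4.65%, 1.28% to 11.5%) and 2 WT (2.22%, 0.27% to 7.80%). Both CD4 shares lay above both CD8 intervals. The mean over all cells was 23.6 FPKM in KO-labelled and 29.2 FPKM in WT CD4 cells, against 1.29 FPKM in KO-labelled and 0.777 FPKM in WT CD8 cells, and single cells reached 191.2 FPKM in the KO-labelled and 440.9 FPKM in the WT CD4 pool. Of the 4 KO-labelled CD8 cells with Maf, 2 also had Foxp3, which specifies regulatory T cells and which was found in 4 of 86 KO-labelled and 0 of 90 WT CD8 cells (up to 3.33%).

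Il10 (chromosome 1, 131019845 to 131024974, plus strand) was rare and high. In KO-labelled CD4 cells it was found in 11 of 89 (12.4%, 6.33% to 21%), with a lowest value of 143.2 FPKM, a median of 1584 FPKM and a highest value of 6233 FPKM. WT CD4 cells with Il10 numbered 11 of 85 (12.9%, 6.64% to 22%), with a lowest value of 1.39 FPKM, a median of 667 FPKM and a highest value of 5160 FPKM. The pools overlapped over most of this range, and the lowest WT cell was below the level of 1 fragment at the median depth. The mean of Il10 rested on few cells, the top 3 holding 57.4% of the summed FPKM in the KO-labelled pool and 76.8% in the WT pool. In CD8 cells the single values were 1.74 FPKM in the KO-labelled and 1.77 FPKM in the WT pool.

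Ahr, the gene of the ligand-activated receptor (chromosome 12, 35497974 to 35535038, minus strand), was found in 4 KO-labelled and 3 WT CD8 cells and in 2 KO-labelled and 2 WT CD4 cells. Its shares were 4.65% in KO-labelled CD8, 3.33% in WT CD8, 2.25% in KO-labelled CD4 and 2.35% in WT CD4 cells. None of the 22 CD4 cells with Il10 had Ahr at 1 FPKM or more. At this depth Ahr gave too few cells to describe a difference. Of 5 genes known as AhR targets, Cyp1a1, Cyp1b1, Ahrr, Tiparp and Nqo1, only Tiparp was found in at least 5% of the cells of a group, the minimum for a gene to count as measured between 2 groups.

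Nfil3 (chromosome 13, 52967209 to 52981073, minus strand) was found in 13 KO-labelled CD8 cells (15.1%, 8.30% to 24.5%) and 14 WT CD8 cells (15.6%, 8.77% to 24.7%). CD4 cells with Nfil3 numbered 20 labelled KO (22.5%, 14.3% to 32.6%) and 15 WT (17.6%, 10.2% to 27.4%), so all intervals overlapped. Batf (chromosome 12, 85686669 to 85709087, plus strand) was the member found most often in CD8 cells, in 25 labelled KO (29.1%, 19.8% to 39.9%) and 31 WT (34.4%, 24.7% to 45.2%), against 22 KO-labelled CD4 cells (24.7%, 16.2% to 35%) and 20 WT CD4 cells (23.5%, 15% to 34%). Where found, its median was 395 FPKM in KO-labelled and 415 FPKM in WT CD4 cells, against 121.4 FPKM in KO-labelled and 213.9 FPKM in WT CD8 cells.

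**Figure D2:**
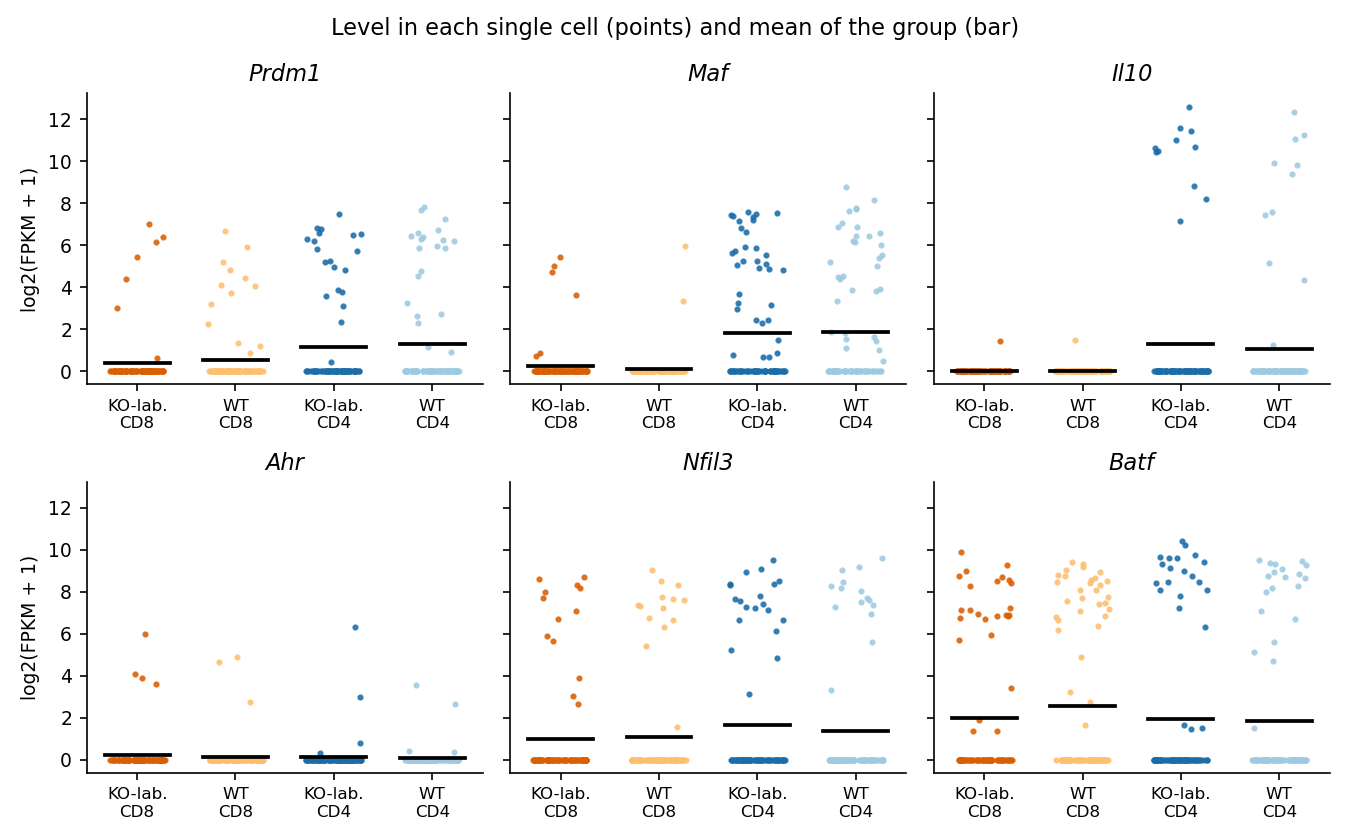
Level of each member in every cell (points, log2 of FPKM + 1 on the vertical axis) in KO-labelled CD8, WT CD8, KO-labelled CD4 and WT CD4 cells, with the mean of the group as a bar. Most cells sit at 0 in every panel, and Il10 stands above 7 on this scale in all 11 KO-labelled CD4 cells that have it.

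Whether the receptor genotype goes with the level of these genes is the question of the KO-labelled against WT comparison. Differences here are of mean log2(FPKM + 1), and a gene is called past the fold at 1 or more in size. In CD8 cells, Prdm1 differed by -0.15, Nfil3 by -0.10 and Batf by -0.58 between KO-labelled and WT cells. None of these 3 measured members was past the fold, where 0.29% of 9320 measured genes were higher and 6.81% lower in KO-labelled cells, and the median of all genes was -0.23. Maf, Il10 and Ahr were in under 5% of cells of both CD8 pools and were not measured there.

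In CD4 cells, Prdm1 differed by -0.12, Maf by -0.06, Il10 by 0.22, Nfil3 by 0.29 and Batf by 0.11 between KO-labelled and WT cells. None of the 5 measured members was past the fold, where 4.38% of 8780 genes were higher and 0.456% lower in KO-labelled cells. The median of all genes was 0.09. With SDs over cells of 2.30 to 3.65, these differences were small beside the spread among cells of a pool. Foxp3 was found in 39.3% of KO-labelled and 54.1% of WT CD4 cells. Among CD4 cells without Foxp3, Maf differed by 0.66, Nfil3 by 1.03 and Batf by -0.99, and among CD4 cells with at least 2000 genes Il10 differed by 1.01 and Batf by 0.82.

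Among IL-27 family and related signalling genes, Stat3, which transmits IL-27, IL-6 and IL-10 signals, differed by -1.52 between KO-labelled and WT CD8 cells, and Il21r, the IL-21 receptor gene, by -1.38. Both were lower past the fold in KO-labelled CD8 cells, and neither was past it in CD4 cells. Of the 9 genes of this list measured in each sort, 3 were lower past the fold in KO-labelled CD8 cells and 1 in KO-labelled CD4 cells. None was higher past it. Over all genes, 6.81% in CD8 and 0.456% in CD4 cells were lower past the fold.

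Of 10 genes of partners and competitors of Batf, c-Maf and AhR, 8 were measured in CD8 cells, and Irf8, an interferon regulatory factor that pairs with Batf proteins, was lower past the fold in KO-labelled cells. It was found in 4.65% of KO-labelled and 26.7% of WT CD8 cells (-1.82), and in 5.62% of KO-labelled and 17.6% of WT CD4 cells (-1.06), where it was again the only one of 9 measured past the fold. Socs3, a feedback inhibitor induced through STAT3, was found in 29.2% of KO-labelled and 63.5% of WT CD4 cells, a difference of -3.07 with intervals apart, but differed by -0.28 in CD8 cells. Il10ra, the ligand-binding chain of the IL-10 receptor, differed by -1.15 in CD8 and 0.71 in CD4 cells. Of the 4 genes of the IL-10 receptor and its response, Il10ra, Il10rb, Socs3 and Bcl3, 1 was thus lower past the fold in each sort, Il10ra in CD8 and Socs3 in CD4 cells, where 6.81% of all genes in CD8 and 0.456% in CD4 cells were. The list's median was -0.39 in CD8 and 0.32 in CD4 cells, against -0.23 in CD8 and 0.09 in CD4 cells over all genes.

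The checkpoint receptors were lower in KO-labelled CD8 cells for 3 of 4. Havcr2, the gene of Tim-3, was found in 8.14% of KO-labelled and 27.8% of WT CD8 cells (-1.60, intervals apart), Lag3 differed by -1.79 and Pdcd1, the gene of PD-1, by -1.41, while Tigit differed by 0.02. Of all genes, 6.81% were lower past the fold in this comparison. In CD4 cells Lag3 differed by -1.37, Havcr2 by -0.89, Tigit by -0.54 and Pdcd1 by -0.02, so that 1 of 4 was lower past the fold, where 0.456% of all genes were. Pdpn was found in no cell, and Procr in 0 KO-labelled and 1 WT CD8 cell and in 0 KO-labelled and 2 WT CD4 cells.

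Between the sorts, Maf and Il10 were higher past the fold in CD4 than in CD8 cells of both genotypes. The difference for Maf was 1.57 in KO-labelled and 1.77 in WT cells, and for Il10 1.25 in KO-labelled and 1.04 in WT cells. Of measured genes, 3.87% were higher past the fold in CD4 cells labelled KO and 0.833% in WT CD4 cells, while 2.11% in KO-labelled and 12% in WT cells were lower. Both members' shares also had intervals apart, as did 1.74% of genes with a higher CD4 share in KO-labelled and 0.481% in WT cells.

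Prdm1 was higher in CD4 cells by 0.76 in KO-labelled and 0.74 in WT cells, and Nfil3 by 0.66 in KO-labelled and 0.26 in WT cells, all under the fold. Batf differed by -0.02 in KO-labelled and -0.71 in WT cells. The median of all genes was 0.03 in KO-labelled and -0.27 in WT cells, and WT CD4 cells had fewer genes than WT CD8 cells. With a pseudocount of 10 FPKM in place of 1, Maf was at 0.74 in KO-labelled and 0.83 in WT cells and Il10 at 0.86 in KO-labelled and 0.66 in WT cells, under the fold.

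CD4 cells were then divided by Foxp3, which was found in 35 of 89 KO-labelled and 46 of 85 WT CD4 cells. Il10 was almost limited to cells with Foxp3, which made up 10 of the 11 Il10 cells of each pool. Il10 was found in 28.6% of KO-labelled cells with Foxp3 and 1.85% of those without, and in 21.7% of WT cells with Foxp3 and 2.56% of those without, and in the KO-labelled pool the intervals were apart. Maf was found in 48.6% of cells with Foxp3 and 24.1% of those without in the KO-labelled pool, and in 56.5% with and 15.4% without in the WT pool, with intervals apart in WT cells.

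Prdm1 was found in 31.4% of KO-labelled cells with Foxp3 and 14.8% of those without, and in 37% of WT cells with Foxp3 and 7.69% of those without. Nfil3 was found in 37.1% with and 13% without Foxp3 in the KO-labelled pool. In the WT pool all 15 cells with Nfil3 had Foxp3, which is 32.6% of cells with Foxp3 and none of 39 without. Batf was found in 48.6% with and 9.26% without Foxp3 in KO-labelled cells, and in 26.1% with and 20.5% without in WT cells. Intervals were apart for Prdm1 and Nfil3 in WT and for Batf in KO-labelled cells. All 4 CD4 cells with Ahr, 2 in each pool, lacked Foxp3.

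Of the 5 members measured in each pool, 4 were higher past the fold in cells with Foxp3, Maf falling just short in KO-labelled cells at 0.98 and Batf short in WT cells at 0.28. The share of all genes higher past the fold was 18.3% in KO-labelled and 12.5% in WT cells, and cells with Foxp3 also had more genes, a median of 2152 with and 1746.5 without in KO-labelled cells and 1883.5 with and 1547 without in WT cells. The part of the gene number in these differences was not tested.

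**Figure D3:**
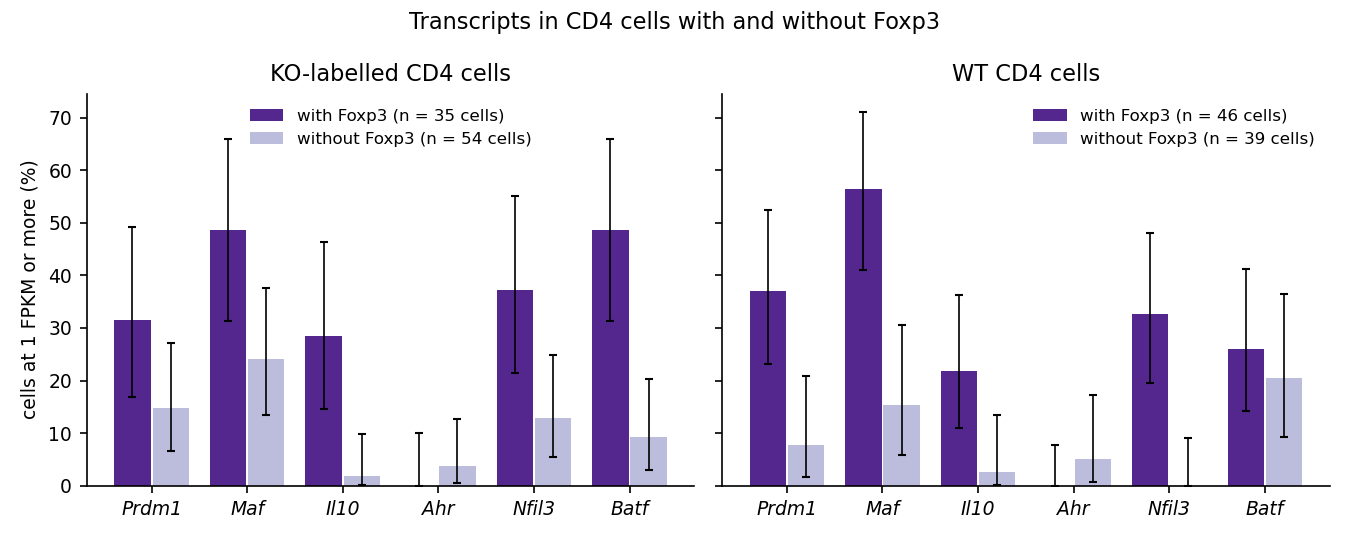
Share of KO-labelled (left) and WT (right) CD4 cells with each member at 1 FPKM or more (vertical axis, percent), in cells with and without Foxp3, with exact 95% intervals. Il10 was found in 28.6% of KO-labelled and 21.7% of WT cells with Foxp3, and in 1 cell without Foxp3 in each pool.

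Members were found together in CD4 cells more often than the product of their shares. For Prdm1 and Maf, 10 KO-labelled and 11 WT cells had both, where the products were 6.40 cells in the KO-labelled and 7.53 cells in the WT pool. Maf and Il10 were found together in 7 KO-labelled and 8 WT cells, against products of 3.71 in KO-labelled and 4.14 in WT cells, so that Maf was in 63.6% of Il10 cells of the KO-labelled pool and in 72.7% of those of the WT pool. All 10 pairs without Ahr exceeded their product in both CD4 pools, the widest ratio in the KO-labelled pool being Il10 with Batf (7 cells against 2.72) and in the WT pool Il10 with Nfil3 (5 against 1.94). How often pairs of other genes exceed their product was not counted, so this is not shown to be particular to the members.

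Cells with both members had more genes, for example a median of 2519.5 for Prdm1 and Maf in KO-labelled cells, against 1868 in that pool. Within cells with Foxp3, Prdm1 and Maf were together in 7 cells against a product of 5.34 in KO-labelled and in 11 against 9.61 in WT cells. There, Prdm1 and Il10 were together in 5 KO-labelled cells against 3.14, but in 3 WT cells against 3.70, below the product. The part of gene number and of Foxp3 in these counts was not tested. In CD8 cells, Prdm1 and Maf were together in 1 KO-labelled and 0 WT cells, while Nfil3 and Batf were together in 4 KO-labelled cells against a product of 3.78 and in 8 WT cells against 4.82.

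At least 3 of the 6 members were found in 13 KO-labelled CD4 cells (14.6%) and 11 WT CD4 cells (12.9%), but in 1 KO-labelled and 2 WT CD8 cells. Of these CD4 cells, 11 of 13 labelled KO and all 11 WT had Foxp3, and they held a mean of 2.62 of the 4 checkpoint receptors in KO-labelled and 2.82 in WT cells. CD4 cells with no member held 0.92 in KO-labelled and 1.03 in WT cells, and all CD4 cells with Foxp3 held 2.14 in KO-labelled and 2.26 in WT cells. The cells with at least 3 members had a median of 2600 genes in KO-labelled and 2681 in WT CD4 cells, against pool medians of 1868 in KO-labelled and 1661 in WT cells. The part of gene number and of Foxp3 was not tested. No cell had all 6, and 50% of KO-labelled CD8, 48.9% of WT CD8, 40.4% of KO-labelled CD4 and 38.8% of WT CD4 cells had none.

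**Figure D4:**
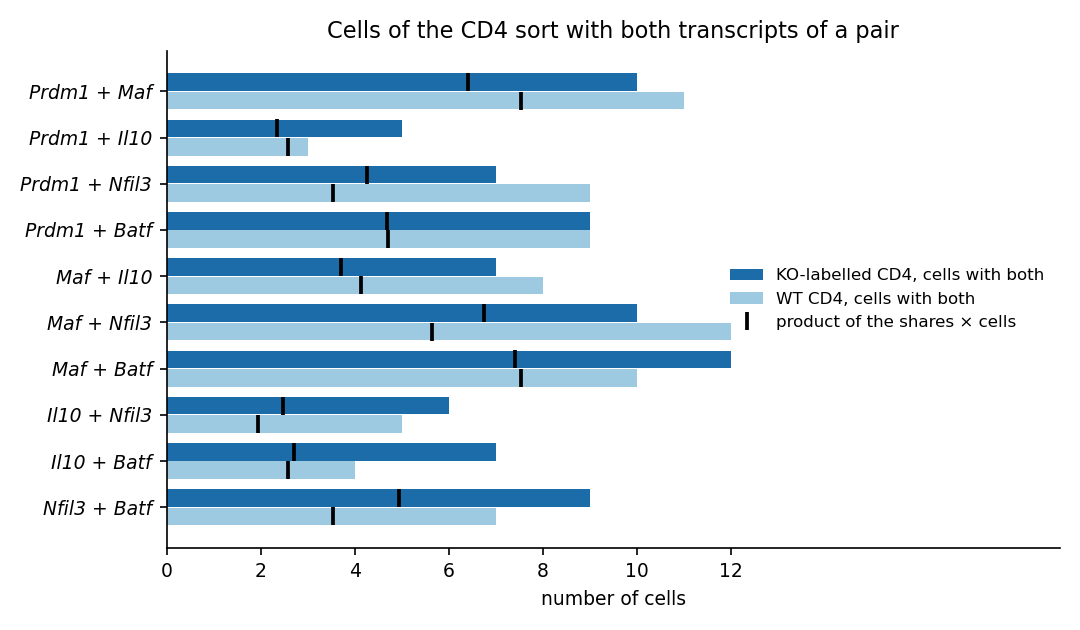
Number of KO-labelled and WT CD4 cells with both transcripts of a pair (bars, horizontal axis), with the product of the shares times the cells as a black tick. Every bar passes its tick, by the least for Prdm1 with Il10 in WT cells (3 cells against 2.59). Pairs of other genes were not counted.

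Checkpoint receptors were counted in cells with and without Prdm1. In WT CD8 cells the 12 cells with Prdm1 had 3 ± 1.35 of the 4 receptors and the 78 without had 1.37 ± 1.42 (SD over cells). Havcr2 was found in 75% with and 20.5% without Prdm1, with intervals apart, Lag3 in 66.7% with and 26.9% without, Pdcd1 in 66.7% with and 35.9% without, and Tigit, an inhibitory receptor for CD155, in 91.7% with and 53.8% without. All 4 were higher past the fold, at 3.77 to 4.29, where 26.4% of all genes were. WT CD8 cells with Prdm1 had a median of 3481 genes and those without had 2103, and weighting the cells to equal gene numbers left a difference of 0.83 receptors, against 1.63 unweighted.

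In KO-labelled CD8 cells, the 6 cells with Prdm1 had 1.17 ± 0.41 receptors and the 80 without had 1.16 ± 0.97. These cells had similar gene numbers, a median of 2059 with and 1955 without Prdm1. Past the fold were 2 of 4 receptors, Pdcd1 at 1.06 and Havcr2 at 1.03, where 14.5% of genes were higher. With 6 cells the intervals of the shares were wide, such as 4.33% to 77.7% for Pdcd1, and the difference between the KO-labelled and WT pools in this contrast was not tested.

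In CD4 cells, the 19 KO-labelled cells with Prdm1 had 2.05 ± 1.13 receptors and the 70 without had 1.16 ± 1.07, and the 20 WT cells with Prdm1 had 2.25 ± 1.12 and the 65 without had 1.46 ± 1.19. Pdcd1 was found in 63.2% with and 30% without Prdm1 in KO-labelled cells, but in 35% with and 40% without in WT cells. Past the fold were 2 of 4 receptors in KO-labelled cells, Pdcd1 and Tigit, where 16.2% of genes were higher, and 3 of 4 in WT cells, Havcr2, Lag3 and Tigit, where 20.1% were. Foxp3 was in 11 of 19 KO-labelled cells with Prdm1 and 24 of 70 without, and in 17 of 20 WT cells with Prdm1 and 29 of 65 without. Within cells with Foxp3, the receptors numbered 2.55 with and 1.96 without Prdm1 in KO-labelled cells, and 2.35 with and 2.21 without in WT cells. These cells also differed in gene number, with a median of 2669 with and 1948.5 without Prdm1 in KO-labelled cells and 2423 with and 1804 without in WT cells. Weighted to equal gene numbers, the receptors numbered 2.11 with and 2.11 without Prdm1 in KO-labelled cells with Foxp3, and 2.13 with and 2.36 without in WT cells with Foxp3, where the direction turned. Among KO-labelled CD4 cells without Foxp3, they numbered 1.375 in the 8 cells with Prdm1 and 0.739 in the 46 without. In WT CD4 cells without Foxp3, they numbered 1.67 in the 3 cells with Prdm1 and 0.861 in the 36 without. Weighted to equal gene numbers, the differences without Foxp3 were 0.76 in KO-labelled and 0.84 in WT cells.

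**Figure D5:**
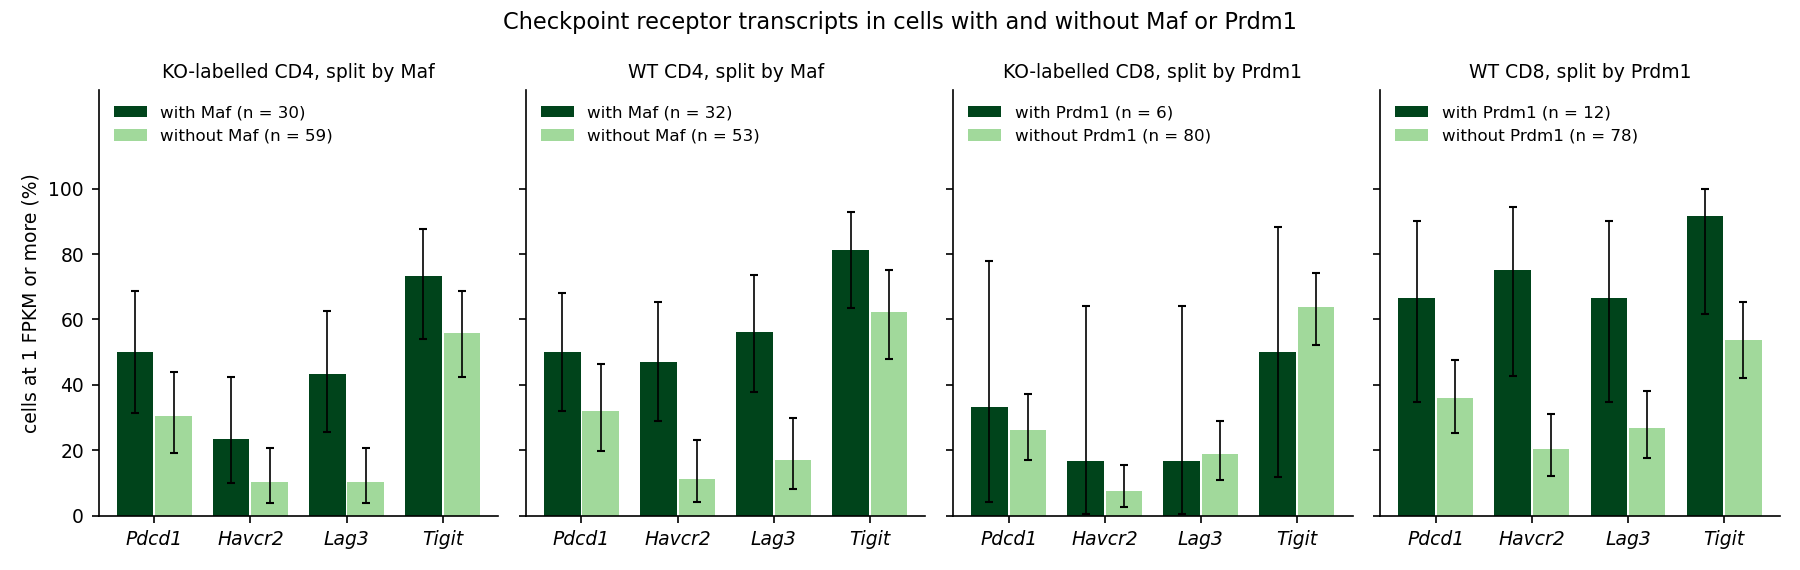
Share of cells (vertical axis, percent) with Pdcd1, Havcr2, Lag3 and Tigit at 1 FPKM or more, in KO-labelled and WT CD4 cells with and without Maf and in KO-labelled and WT CD8 cells with and without Prdm1, with exact 95% intervals. Havcr2 was found in 75% of WT CD8 cells with Prdm1 and 20.5% of those without, and the 6 KO-labelled CD8 cells with Prdm1 have the widest bars.

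Cells with Maf had more receptors in both CD4 pools. The 30 KO-labelled cells with Maf had 1.90 ± 1.09 and the 59 without had 1.07 ± 1.06, and the 32 WT cells with Maf had 2.34 ± 1.15 and the 53 without had 1.23 ± 1.05. In WT cells, Lag3 was found in 56.2% with and 17% without Maf and Havcr2 in 46.9% with and 11.3% without, both with intervals apart, and in KO-labelled cells Lag3 was found in 43.3% with and 10.2% without, also with intervals apart. Past the fold were 3 of 4 receptors in each pool, all but Havcr2 in KO-labelled cells, where 16.7% of genes were higher, and all but Pdcd1 in WT cells, where 11.9% were.

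Foxp3 moved with this contrast, in 17 of 30 KO-labelled cells with Maf and 18 of 59 without, and in 26 of 32 WT cells with Maf and 20 of 53 without. Within cells with Foxp3 the receptors numbered 2.47 with and 1.83 without Maf in KO-labelled cells, and 2.69 with and 1.70 without in WT cells. Weighted to equal gene numbers, these were 2.21 with and 2.14 without Maf in KO-labelled cells, where the median cell had 2600 genes with and 1880 without Maf, and 2.66 with and 1.78 without in WT cells. Among cells without Foxp3 they numbered 1.15 with and 0.732 without Maf in KO-labelled cells, but 0.833 with and 0.939 without in WT cells, where 6 cells had Maf. Weighted to equal gene numbers, the difference over all CD4 cells was 0.49 in KO-labelled and 0.94 in WT cells. In CD8 cells, 4 KO-labelled cells had Maf, with 2 receptors against 1.12 without, and the 2 WT cells with Maf had all 4 receptors.

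Genes that Blimp-1 is known to repress or oppose were looked at in the same cells. Tcf7, the gene of the memory and stem-like factor TCF-1, was found in none of the 12 WT CD8 cells with Prdm1 and 60.3% of those without (-4.72), and Ccr7, a homing chemokine receptor, in 25% with and 46.2% without (-1.95). Of a list of 8 such genes, 5 were measured there and 3 were lower past the fold, these included, where 1.45% of all genes were. In KO-labelled CD8 cells 3 of 6 were lower past the fold, among them Ccr7 at -4.61 and Tcf7 at -1.33, where 11.6% of genes were. In CD4 cells Tcf7 was lower by the fold with Prdm1 in both pools, at -1.42 in KO-labelled and -2.34 in WT cells, and Ccr7 was found in none of the 20 WT cells with Prdm1 (-2.74), while it differed by -0.22 in KO-labelled CD4 cells. Of 4 list genes measured in each CD4 pool, 1 was lower past the fold in KO-labelled cells, and 2 were lower and 1 higher in WT cells. Genes lower past the fold made up 1.44% in KO-labelled and 0.984% in WT CD4 cells. Within KO-labelled CD4 cells with Foxp3, Ccr7 was higher with Prdm1 by 1.58, found in 2 of 11 cells with and 1 of 24 without. There, 2 of 3 measured list genes were higher and 0 lower past the fold. In WT cells with Foxp3, 1 of 4 was higher and 1 lower. Without Foxp3, 3 of 6 in KO-labelled and 4 of 6 in WT cells were lower and 0 higher, with Prdm1 in 8 KO-labelled and 3 WT cells. Shares over all genes were not counted in these splits by Foxp3, and its part was not tested.

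Gzmb, the cytotoxic protease granzyme B, was higher with Prdm1 in all 4 pools, by 5.61 in KO-labelled CD8, 5.01 in WT CD8, 3.51 in KO-labelled CD4 and 3.90 in WT CD4 cells. In these splits 14.5% of all genes were higher past the fold in KO-labelled CD8, 26.4% in WT CD8, 16.2% in KO-labelled CD4 and 20.1% in WT CD4 cells. Of 6 other effector genes, 0 of 6 measured were higher past the fold with Prdm1 in KO-labelled CD8 and 4 of 6 in WT CD8 cells. In CD4 cells these were 1 of 5 in KO-labelled and 3 of 5 in WT cells. With Maf, Gzmb was higher by 3.82 in KO-labelled and 4.83 in WT CD4 cells, where 16.7% of genes in KO-labelled and 11.9% in WT cells were past the fold. Irf8 was found in 16.7% of KO-labelled CD8 cells with Prdm1, which is 1 cell, and 3.75% of those without, and in 15.8% of KO-labelled CD4 cells with Prdm1 and 2.86% of those without (0.69, under the fold). It was found in 66.7% of WT CD8 cells with Prdm1 and 20.5% of those without, and in 45% of WT CD4 cells with Prdm1 and 9.23% of those without. Icos, a co-stimulatory receptor, was found in all 6 KO-labelled CD8 cells with Prdm1 and in 48.8% of those without.

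The 11 Il10 cells of each CD4 pool carried 2.73 ± 0.65 receptors in KO-labelled and 2.45 ± 0.69 in WT cells, against 1.15 ± 1.06 in KO-labelled and 1.53 ± 1.23 in WT cells without Il10. The median gene number was 2389 with and 1802 without Il10 in KO-labelled cells, and 1598 with and 1673.5 without in WT cells. Weighted to equal gene numbers, the difference was 1.25 in KO-labelled cells, against 1.57 unweighted, and 0.84 in WT cells, against 0.93 unweighted. Foxp3 was in 10 of 11 KO-labelled cells with Il10 and 25 of 78 without, and in 10 of 11 WT cells with Il10 and 36 of 74 without. Cells with Foxp3, whatever their Il10, carried 2.14 ± 1.06 receptors and those without 0.833 ± 0.86 in the KO-labelled pool, and 2.26 ± 1.14 with and 0.923 ± 0.84 without in the WT pool. The part of Foxp3 in the Il10 contrast was not tested. Tigit was found in all 11 in both pools, and Lag3 in 7 KO-labelled and 8 WT cells. Pdcd1 was found in 10 of 11 KO-labelled Il10 cells and in 3 of 11 WT Il10 cells. Of the 4 other members measured, all were higher past the fold in KO-labelled Il10 cells, where 24.8% of genes were, and 3 in WT Il10 cells, where 11.6% were.

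Maf accompanied Il10 in 7 KO-labelled and 8 WT cells, Batf in 7 KO-labelled and 4 WT, Nfil3 in 6 KO-labelled and 5 WT, and Prdm1 in 5 KO-labelled and 3 WT cells. Ctla4, the inhibitory receptor of regulatory and activated T cells, was in all 11 KO-labelled and 10 of 11 WT Il10 cells, and Ccr7 was in none of them. Gzmb was in 7 KO-labelled and 9 WT Il10 cells. Macrophages can also make IL-10, and at least 2 of 8 macrophage markers at 10 FPKM or more were found in 0 of 11 KO-labelled and 1 of 11 WT Il10 cells. The summed level of these markers was 0 to 70.7 FPKM in KO-labelled and 0 to 1396 FPKM in WT Il10 cells, with a median of 0 in both, and Fcgr1 was at 0 in both CD4 pools.

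Nfil3 and Batf also went with receptor number in some pools. The 15 WT CD4 cells with Nfil3, all with Foxp3, had 2.87 ± 0.92 receptors and the 70 without had 1.39 ± 1.11, Lag3 being found in 86.7% with and 20% without, and KO-labelled CD4 cells had 2.00 ± 1.21 with and 1.16 ± 1.05 without Nfil3. Foxp3 was in 13 of 20 KO-labelled CD4 cells with Nfil3 and 22 of 69 without, and its part was not tested. The median gene number was 2180.5 with and 1773 without Nfil3 in KO-labelled CD4 cells, and 2319 with and 1590.5 without in WT CD4 cells. Weighted to equal gene numbers, the difference was 0.39 in KO-labelled cells, against 0.84 unweighted, and 0.98 in WT cells, against 1.48 unweighted. WT CD8 cells had 2.23 ± 1.75 with and 1.25 ± 1.25 without Batf, at a median of 2700 genes with and 2068 without, and weighted to equal gene numbers the difference was 0.20. KO-labelled CD8 cells had 1.28 ± 0.74 with and 1.11 ± 1.02 without Batf. KO-labelled CD4 cells had 2.05 ± 1.29 with and 1.12 ± 0.99 without Batf, a difference of 0.44 when weighted to equal gene numbers. WT CD4 cells had 2.10 ± 1.17 with and 1.51 ± 1.20 without Batf, a difference of 0.02 when weighted. Foxp3 was in 17 of 22 KO-labelled CD4 cells with Batf and 18 of 67 without, and in 12 of 20 WT CD4 cells with Batf and 34 of 65 without.

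Over all 350 cells, likeness was taken as Pearson's r of log2(FPKM + 1) after removal of the group means and of the number of genes found. Ranked were 5872 genes found in at least 10% of these cells, without predicted genes and receptor gene segments. Il10 and Ahr, found in fewer cells, were not ranked. No ranked gene exceeded 0.325, so these are weak likenesses over cells of shared pools. Among the nearest to Prdm1 were Gzmb (0.26), Pdcd1lg2 (0.26), Socs2 (0.25) and Havcr2 (0.22). The ranked genes nearest to Maf were Sdc4 (0.26), Sv2c (0.26), Acot11 (0.25), Arl5a (0.25) and Ikzf2 (0.24). Il10 was nearest to Il1r2 (0.32), Adam8 (0.31), Ptms (0.31), Foxp3 (0.31) and Serpinb6a (0.30). For Nfil3 the nearest was Gpr55 (0.28), for Batf Ciz1 (0.22) and for Ahr, from 11 cells, Npc1 (0.23). Between members the highest was Maf with Il10 at 0.263, above Maf with Sdc4 at 0.261, and Prdm1 with Maf was at 0.12.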

How the data were processed

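The authors deposited gene-level FPKM, normalized between cells by TMM per the file's name in the labels, and made with Bowtie and RSEM on mm10 per the submitters' processing notes, with versions not given in the sources used here. Of 375 columns, 371 were single cells, and 4 without a sample were not used. 4 repeated gene symbols were dropped, which left 23362 genes. Sort and genotype come from sample titles, although the treatment text mentions CD8 cells only.

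Cells with at least 1000 genes at 1 FPKM were kept, and no doublet caller was used. Values are means over cells of log2(FPKM + 1), on which fold changes of low genes are understated. A gene counts as measured where 5% or more of the cells of 1 of the groups compared had it. With 1 pool a group there was no test. Depth was estimated from the spacing of low values over 3808 genes with 1 transcript, 28.2% of low values lying within 0.2 (log2) of a step. Fragments per gene were not recovered. Weighted values match cells in classes of detected gene number. The members, lists and splits were chosen with earlier results of these data known. Named genes are the members, the 4 receptors, list genes past the fold or with the largest differences, and the 5 nearest by correlation. Some genes of these lists are not reported here. The code for differences and weights was tested on WT CD8 cells of this series, split at random, with known folds put into some genes. The other code was not tested in this way. Alternatives were the pseudocount, the detection level, the gene minimum, weighting, and cells without Foxp3, without other types' markers or off their sort. Python 3.11.15, numpy 2.4.6, pandas 2.3.3, scipy 1.17.1 and matplotlib 3.10.9 were used.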

Additional observations from a re-analysis of the deposited data

Results flagged for a closer look

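Pdcd1 in CD4 cells with Il10 ran in opposite directions in the 2 pools. In KO-labelled cells it was higher by 5.91 on the log2 scale with Il10 than without, found in 10 of 11 cells with Il10 and 23 of 78 without. In WT cells the difference was -1.37, with Pdcd1 in 3 of 11 cells with Il10 and 30 of 74 without. The difference between the pools was not tested, each pool being 1 sample.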

How the results depend on the processing

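KO-labelled minus WT differences of the members moved by no more than 0.58 (log2), and did not cross the fold with a move of over 0.1, in all but 5 recomputations. In CD4 cells without Foxp3, Maf was at 0.66, Nfil3 at 1.03 and Batf at -0.99. In CD4 cells with at least 2000 genes, Il10 was at 1.01 and Batf at 0.82. CD4 minus CD8 differences did so in 67 of 84. With a pseudocount of 0.1, Prdm1 was at 1.23 in KO-labelled and 1.08 in WT cells, Maf at 2.56 in KO-labelled and 2.91 in WT cells, and Batf at -1.07 in WT cells. With a pseudocount of 10, Maf was at 0.74 in KO-labelled and 0.83 in WT cells and Il10 at 0.86 in KO-labelled and 0.66 in WT cells. With at least 2000 genes, Prdm1 was at 1.30 in KO-labelled and 1.46 in WT cells, Maf at 2.24 in KO-labelled and 2.59 in WT cells, Nfil3 at 1.54 in KO-labelled and 1.79 in WT cells, and in KO-labelled cells Il10 at 2.53 and Batf at 1.07.

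Differences in receptor number stayed within a factor of 1.5 (or 0.1 receptors) in 33 of 48. By Prdm1, they were 0.304 at 5 FPKM and 0.360 at 10 FPKM in KO-labelled CD8 cells. Weighted, they were 0.831 in WT CD8 and 0.504 in WT CD4 cells. Among CD4 cells with Foxp3, a choice made after seeing the data, they were 0.587 in KO-labelled and 0.146 in WT cells, and weighted as well, also chosen after seeing the data, -0.00194 in KO-labelled and -0.223 in WT cells, where the direction turned. Among CD4 cells without Foxp3, they were 0.636 in KO-labelled and 0.806 in WT cells, with Prdm1 in 8 KO-labelled and 3 WT cells. By Maf in KO-labelled CD4 cells, they were 0.491 at 5 FPKM, 0.359 at 10 FPKM, 0.503 with at least 2000 genes, 0.489 weighted, 0.422 without Foxp3 and 0.0714 with Foxp3 and weighted. By Maf in WT CD4 cells without Foxp3, the direction turned, at -0.106. The cause was not tested. Maf in CD8 cells was too rare for these recomputations. Shares stayed within their main interval in all but 22 recomputations, and the 8 counts of genes past the fold within a factor of 1.5 when measured genes were those in at least 20% of cells. No paired analysis was possible because each group is 1 pool and cell numbers do not pair cells. At this depth Ahr and, in CD8 cells, Il10 were found in at most 4 cells a group.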

Other observations

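Foxp3 was found in 4 of 86 cells of the KO-labelled CD8 sort, none of which had Cd4 at 1 FPKM or more. Of these 4, 2 had Maf, 1 had Prdm1 and 1 had Ahr. In cells of the CD4 sort without Foxp3, Il10 was found in 1 of 54 KO-labelled and 1 of 39 WT cells.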
